A study of Homo sapiens with 4 samples.

Results

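This account covers 40 human genes for ribosome assembly in the nucleolus and for RNA polymerase I (Pol I), taken by gene symbol from a table of 58219 gene IDs. All 40 were found, each under 1 ID of GENCODE 29, and all 40 passed the filter that left 16132 genes for testing. Libraries from the human glioma line GBM8401 fell into 2 groups of 2. The TMZ-resistant group is a GBM8401 line held in medium with 200 µM temozolomide (TMZ), a DNA-methylating drug, over 140 days. The parental group is the same line without that selection. The labels name 1 TMZ-resistant line for both of its libraries. They call the replicates biological but name no separate cultures, so the p-values measure only the spread between these libraries. The rule names the genes by function and uses no measured value.

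Ribosomes are assembled in the nucleolus. Pol I transcribes a long precursor rRNA, small nucleolar ribonucleoprotein particles (snoRNPs) modify and fold it, and a succession of assembly factors cuts it and packs it with ribosomal proteins into the small and the large subunit. The system consumes a large part of a growing cell's resources, and dividing tumour cells, gliomas among them, often carry enlarged nucleoli.

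The deposited values are fragment numbers per gene, scaled by 1 factor per library and not divided by gene length. Library totals were 23163310 and 24225039 in the TMZ-resistant group and 24791254 and 25832511 in the parental group, equal to 27019137 to 30759939 fragments before scaling. Of the glioma markers, OLIG2 did not pass the test described below and VIM, CD44 and NES were abundant and fell, but the defining astrocyte markers GFAP and S100B stayed at or under 4.25 and SOX2 at or under 10.5 in every library. Markers of other cell types were present in both groups. The summed level of 4 fibroblast markers was 5633 and 4502 in the TMZ-resistant and 5624 and 4053 in the parental libraries, and that of 4 epithelial markers 1917 and 1410 in the TMZ-resistant and 1863 and 1221 in the parental libraries. In both lists replicate 1 of either group was higher than replicate 2, and COL1A1 made up most of the fibroblast sum. None of these genes changed, nor did any of the 4 hematopoietic markers tested. Of 3 endothelial markers CDH5 fell, and of 3 neuronal markers RBFOX3 rose. The part of these markers in the members' values was not tested.

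Most of the 40 genes were lower in TMZ-resistant cells. The test was limma on log2(value + 1), fitted over all 16132 genes, with the Benjamini-Hochberg adjusted p under 0.05 called a change. By it 28 of the 40 members fell, 1 rose and 11 did not pass. Among all genes tested, 20.9% fell and 16.2% rose. The members' median log2 fold change was −0.41, against −0.02 over all genes tested, and single members ran from −1.02 to 0.38. In bulk RNA, fewer cells of a kind and less RNA per cell cannot be told apart. In 36 members both TMZ-resistant libraries lay below both parental libraries, an arrangement that 36.4% of all genes tested showed, and in 2 members both lay above, as in 32.2% of all genes. Most members are expressed at high levels, and 31 of them are among the 5397 genes with a mean value of at least 1000. Of these 31 members 22 fell and 1 rose, against 35.2% and 15.1% of the 5397 genes. With scaling to library size alone, 22 members fell and 2 rose, against 17.2% and 22.7% of all genes.

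**Figure D1:**
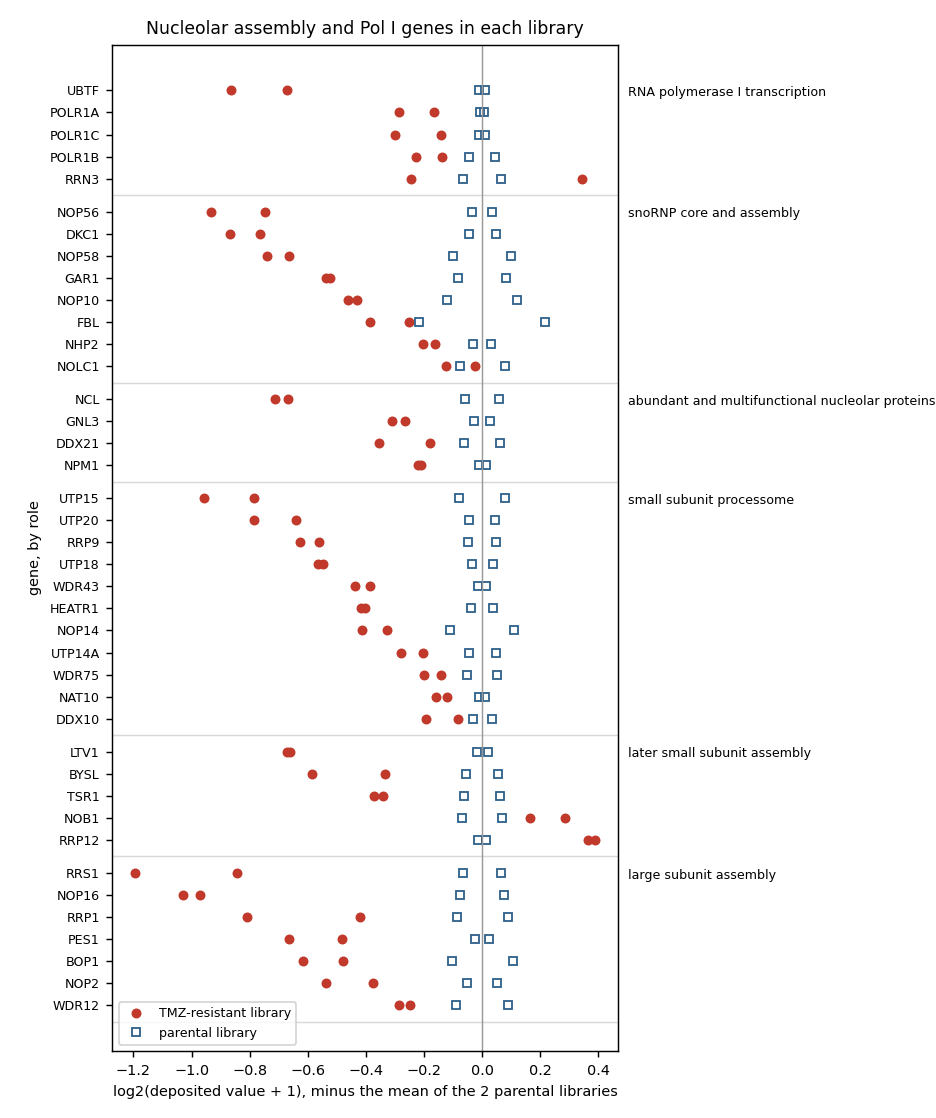
Level of each of the 40 genes in every library, as log2(deposited value + 1) minus the mean of the parental libraries, with genes grouped by role. Filled circles are TMZ-resistant and open squares parental libraries. The circles lie left of the squares in 36 genes and right of them in NOB1 and RRP12, and they overlap in NOLC1 and RRN3.

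Windows around the transcription start of some of the members with large falls are printed here because members that move together can be searched for shared promoter motifs. They are RefSeq windows (build GRCh38.p14) of 250 bases before to 50 bases after the start, written 5′ to 3′ on the gene's strand. Capitals mark matches, on either strand, to the E-box CACGTG, the ETS motif CCGGAAG, the CCAAT motif, the NRF1 motif (a palindrome, the capitals in DKC1) or the TATA motif TATAAA. The windows are NOP16 chr5:176388549-176388848 (minus strand), DKC1 chrX:154762614-154762913 (plus strand), UTP20 chr12:101279855-101280154 (plus strand) and UTP15 chr5:73565493-73565792 (plus strand).

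NOP16: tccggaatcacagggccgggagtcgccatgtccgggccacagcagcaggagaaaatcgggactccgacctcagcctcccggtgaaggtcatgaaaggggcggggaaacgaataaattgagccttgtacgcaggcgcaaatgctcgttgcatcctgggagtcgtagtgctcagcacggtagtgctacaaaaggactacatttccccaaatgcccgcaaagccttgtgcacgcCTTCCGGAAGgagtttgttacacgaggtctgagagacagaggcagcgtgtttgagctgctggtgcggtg
DKC1: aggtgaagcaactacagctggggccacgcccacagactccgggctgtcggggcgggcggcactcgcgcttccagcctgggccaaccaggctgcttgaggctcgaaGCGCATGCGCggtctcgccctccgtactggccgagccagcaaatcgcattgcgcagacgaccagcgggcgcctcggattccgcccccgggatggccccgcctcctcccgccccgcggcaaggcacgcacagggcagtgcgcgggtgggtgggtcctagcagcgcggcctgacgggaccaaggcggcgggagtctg
UTP20: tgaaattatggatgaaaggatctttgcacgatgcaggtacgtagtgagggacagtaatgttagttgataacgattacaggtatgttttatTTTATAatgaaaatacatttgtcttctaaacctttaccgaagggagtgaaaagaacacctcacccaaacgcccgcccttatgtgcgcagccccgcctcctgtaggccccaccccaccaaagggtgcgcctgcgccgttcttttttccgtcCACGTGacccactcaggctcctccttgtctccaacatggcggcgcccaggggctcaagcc
UTP15: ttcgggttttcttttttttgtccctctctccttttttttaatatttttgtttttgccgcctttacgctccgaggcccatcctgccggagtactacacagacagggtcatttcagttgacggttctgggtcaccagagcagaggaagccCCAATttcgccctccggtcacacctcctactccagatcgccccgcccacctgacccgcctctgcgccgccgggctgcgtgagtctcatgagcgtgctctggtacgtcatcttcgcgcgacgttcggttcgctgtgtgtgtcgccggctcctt

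The NOP16 window holds a palindrome that reads as the ETS motif on both strands, with first bases at −19 and −16 from the start. The DKC1 window holds the NRF1 motif with its first base at −145. In UTP20 an E-box begins at −10 and a TATA motif on the other strand at −160, and in UTP15 a CCAAT motif begins at −102. Positions count from the RefSeq start. The NOP16 and UTP15 windows lie wholly within the GENCODE bounds of these genes, which are given below. Windows were found for 35 members, and none for NOP58, NOLC1, RRP12, BOP1 and RRS1. UBTF and NOP56, which fell more than UTP20, have windows that are not printed. That of UBTF held none of these motifs and that of NOP56 only the CCAAT motif. The E-box, the sequence bound by MYC with its partner MAX, was in 13 of the 35 windows (37.1%), against 7.43% of all 27305 promoter windows and 10.0% of the 10397 windows of tested coding genes. It was in 10 of 25 members that fell and in 3 of the 10 others. The ETS motif was in 12 windows (34.3%, against 18.7% of tested coding genes) and the NRF1 motif in 4 (11.4% against 2.26%). The CCAAT motif, in 13 windows, and the TATA motif, in 2, had shares (37.1% and 5.71%) beside 36.3% and 5.68% of tested coding genes. The median log2 fold change was −0.46 over the 13 members with an E-box and −0.28 over the 22 without. A gap in this direction was not particular to the E-box. With and without the CCAAT motif the medians were −0.56 and −0.36, and with and without the TATA motif −0.69 and −0.37. For the ETS motif they were −0.40 and −0.41, and for the NRF1 motif −0.35 and −0.41. These letter matches describe the windows only.

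Of the 5 Pol I members 2 fell, UBTF and POLR1A, and 0 rose, beside 20.9% and 16.2% of all genes tested. UBTF binds the promoter and body of the rRNA genes and keeps them open. Its level was 2778 and 3179.7 in the TMZ-resistant libraries, against 5097 and 5026 in the parental libraries. Both TMZ-resistant libraries were far below the parental ones, with means of 2979 ± 284 in TMZ-resistant and 5062 ± 50.4 in parental cells (SD, n = 2 each). The log2 fold change was −0.77 ± 0.09 (SE), a 1.70-fold fall (limma, adjusted p = 4.11e-04; chromosome 17, 44205033 to 44221626, minus strand, GRCh38). The subunits POLR1A, POLR1B and POLR1C had smaller log2 fold changes than UBTF. POLR1A, the largest, had 5892 and 6408 in the TMZ-resistant libraries, against 7231 and 7152 in the parental libraries. The groups did not overlap, and POLR1A fell 1.17-fold, with a log2 fold change of −0.23 ± 0.07 (SE) and an adjusted p of 0.0412 (limma) that passed in 8 of 14 other settings and was lost on leaving out any library. POLR1B, the second-largest subunit, had 2432 and 2589 in the TMZ-resistant libraries, against 2938 and 2765 in the parental libraries, a difference of −0.18 ± 0.08 (SE) that did not pass (limma, adjusted p = 0.106). POLR1C, which Pol I shares with RNA polymerase III, had a log2 fold change of −0.22 (limma, adjusted p = 0.165). RRN3, which joins the polymerase to the promoter complex, was the lowest member, at 73.0 and 110.4 in the TMZ-resistant libraries, against 83.0 and 90.8 in the parental libraries. Its TMZ-resistant libraries lay on either side of the parental ones, and its log2 fold change of 0.05 ± 0.24 (SE) (limma, adjusted p = 0.898) turned negative without parental replicate 1 or without TMZ-resistant replicate 2.

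The remaining Pol I genes, taken as a list, did not move as one. Of 14 tested, 7 fell and 2 rose, with a median of −0.28, and 5 fell with library-size scaling. Of all genes tested 20.9% fell and 16.2% rose, and of those with a mean value of at least 1000, 35.2% and 15.1%. CD3EAP, now called POLR1G, a Pol I-specific subunit, had 753 and 797 in TMZ-resistant against 1682 and 1402 in parental libraries and a log2 fold change of −0.99 (limma, adjusted p = 3.94e-04). The specific subunits TWISTNB (POLR1F) and POLR1E fell with −0.57 and −0.53, and POLR2E, shared by all 3 nuclear polymerases, with −0.47. POLR1D, the partner of POLR1C in both Pol I and RNA polymerase III, and TAF1D, of the Pol I selectivity factor, rose with 0.40 and 0.28 (limma, adjusted p = 0.00496 and 0.0391), TAF1D being called neither without parental replicate 1 nor without either TMZ-resistant replicate. ZNRD1 was listed at 0 in every library and was not tested. In the other assembly lists ZNHIT3 was also at 0, and WDR46, AATF and SURF6 were at or under 1.70 in every library. The part of read mapping and counting in these values was not tested. Beside the same shares of other genes, RNA polymerase III had 4 falls and 2 rises among 11 genes, with 1 rise when no filter was used. Its alternative subunits moved apart: POLR3G had 568 and 581 in TMZ-resistant against 1320.3 and 1216 in parental libraries and fell (log2 fold change −1.14), while POLR3GL, which takes the same place in the enzyme, had 377 and 398 in TMZ-resistant against 233 and 216 in parental libraries and rose (0.78; limma, adjusted p = 1.32e-04 and 0.00223).

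In the snoRNP role 5 of 8 genes fell and 0 rose, beside 20.9% and 16.2% of all genes tested. The falls were in both the box C/D and the box H/ACA particle. Box C/D particles methylate rRNA and box H/ACA particles turn uridine into pseudouridine. NOP56, a scaffold of the box C/D particle, had 1543 and 1758 in the TMZ-resistant libraries, against 3019.7 and 2879.7 in the parental libraries. Its means were 1650.5 ± 152 in TMZ-resistant and 2949.7 ± 99.0 in parental cells (SD, n = 2 each), a 1.79-fold fall with a log2 fold change of −0.84 ± 0.09 (SE) (limma, adjusted p = 3.45e-04). Its paired scaffold NOP58 had 1915 and 2018 in the TMZ-resistant libraries, against 2990.4 and 3429 in the parental libraries and fell 1.63-fold (−0.70 ± 0.09 (SE), limma, adjusted p = 7.38e-04). In both genes the highest TMZ-resistant library was well under the lowest parental one. FBL, the methyltransferase of the same particle, had 346 and 315 in the TMZ-resistant libraries, against 355 and 479 in the parental libraries. Its parental libraries differed from each other more than the groups were separated, and the log2 fold change of −0.32 ± 0.16 (SE) did not pass (limma, adjusted p = 0.155). Without parental replicate 1 it was −0.54 and passed (limma, adjusted p = 0.0219).

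In the box H/ACA particle the fall was graded. DKC1, the pseudouridine synthase dyskerin (chromosome X, 154762742 to 154777689, plus strand), had 2707 and 2909 in the TMZ-resistant libraries, against 5103 and 4783 in the parental libraries. Its means were 2808 ± 142 in TMZ-resistant and 4943 ± 226 in parental cells (SD, n = 2 each), 1.76-fold lower with a log2 fold change of −0.82 ± 0.08 (SE) (limma, adjusted p = 2.36e-04). GAR1 and NOP10, small proteins of the same particle, fell with −0.53 and −0.45 (limma, adjusted p = 0.0062 and 0.0154), the call for NOP10 being lost without parental replicate 1 or either TMZ-resistant replicate. The fourth core protein, NHP2, had −0.18 and did not pass (limma, adjusted p = 0.0964). NOLC1, a chaperone that carries snoRNPs between nucleolus and Cajal bodies, had 14278 and 15293 in the TMZ-resistant libraries, against 16428 and 14755 in the parental libraries. Its groups overlapped, and the log2 fold change of −0.08 ± 0.08 (SE) (limma, adjusted p = 0.497) became 0.02 with library-size scaling. A further list around snoRNP assembly, mostly chaperones but also TCOF1 and SNU13, had 10 tested genes. Of these 6 fell and 0 rose, beside 20.9% and 16.2% of all genes tested. With library-size scaling 4 fell, and with moderation lacking trend and robustness 3 fell. The largest fall was that of TCOF1, the Treacher Collins protein that also serves Pol I, at 8239 and 9751 in TMZ-resistant against 13491 and 14243 in parental libraries (log2 fold change −0.63, limma, adjusted p = 0.00127). SHQ1, NUFIP1 and SNU13 fell with −0.50, −0.43 and −0.42, NUFIP1 being called neither without parental replicate 1 nor without either TMZ-resistant replicate.

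The RNAs that these proteins carry were mostly outside the measurement. Of 943 snoRNA rows 43 were above 0 in any library and 3 passed the filter. Among 13 RNAs for rRNA processing 3 passed the filter. The U3 gene SNORD3A had 8.28 and 17.8 in the TMZ-resistant libraries, against 26.03 and 50.7 in the parental libraries (limma, adjusted p = 0.0367, not called without parental replicate 2 or TMZ-resistant replicate 1). SNORD3B-1 had 0.753 and 1.70 in TMZ-resistant against 23.6 and 19.1 in parental libraries. It passed the filter through the parental libraries alone, so that its values too are given with no test. All of these are low and divided among near-identical U3 copies. RMRP, the RNA of a processing nuclease, had 29.4 and 45.0 in TMZ-resistant against 70.8 and 43.0 in parental libraries and did not pass (limma, adjusted p = 0.208). By annotation, 7 members carry snoRNA genes within them: NOP56, NOP58, DKC1, NCL, GNL3, WDR43 and TSR1. All 7 fell, with a median log2 fold change of −0.69, against 21 of the 33 other members with a median of −0.37. Falls made up 20.9% of all genes tested and 35.2% of those with a mean value of at least 1000. The 25 snoRNA rows of these 7 members were listed at 0 in every library.

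The abundant nucleolar proteins fell in 4 of 4 cases, by unequal amounts. Of all genes with a mean value of at least 1000, 35.2% fell. NCL, nucleolin, binds nascent rRNA and helps Pol I through chromatin. It had 35988 and 37071 in the TMZ-resistant libraries, against 61380.2 and 56642 in the parental libraries. Its means were 36529.5 ± 765 in TMZ-resistant and 59011 ± 3350.0 in parental cells (SD, n = 2 each), a 1.61-fold fall (−0.69 ± 0.07 (SE), limma, adjusted p = 2.59e-04; chromosome 2, 231453531 to 231483641, minus strand). NPM1, nucleophosmin, forms the outer granular zone of the nucleolus and was the most highly expressed member per kilobase of exon. NPM1 had 39408 and 39057 in the TMZ-resistant libraries, against 45163 and 45939 in the parental libraries. The groups stood apart by more than the spread within either, yet NPM1 was only 1.16-fold lower (−0.22 ± 0.06 (SE), limma, adjusted p = 0.0264), and the call was lost with library-size scaling and on leaving out any library. The table also holds 45 annotated pseudogene copies of NPM1, 24 of them above 0, and near-identical copies can divide its fragments. These copies summed to 10131 and 8077 in TMZ-resistant and 13379 and 10504 in parental libraries, nearly all under NPM1P27, and NPM1 summed with its copies gave a log2 fold change of −0.25 (limma, adjusted p = 0.0173). NPM1 and NCL together took 0.326% and 0.314% of the signal of the TMZ-resistant libraries, against 0.430% and 0.397% in the parental ones. All 40 members took 0.771% and 0.749% in the TMZ-resistant libraries, against 0.973% and 0.898% in the parental ones. GNL3, the GTPase nucleostemin, and DDX21, an RNA helicase, fell with −0.29 and −0.27 (limma, adjusted p = 0.0165 and 0.0351), both calls being lost with library-size scaling and without parental replicate 1 or TMZ-resistant replicate 2. GNL3 was also not called without TMZ-resistant replicate 1.

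The small subunit processome is the large particle that forms on the nascent transcript and releases the precursor of the small subunit. Of its 11 members 7 fell and 0 rose, with a median of −0.41, and in all 11 both TMZ-resistant libraries were below both parental ones. Over all genes tested 20.9% fell, 16.2% rose and 36.4% showed this arrangement. UTP15, of the sub-complex that joins the transcript first, had 837 and 943 in the TMZ-resistant libraries, against 1719 and 1540.2 in the parental libraries. The groups stood far apart, and the gene fell 1.83-fold (−0.87 ± 0.10 (SE), limma, adjusted p = 4.77e-04; chromosome 5, 73565443 to 73583377, plus strand). UTP20, a large scaffold, had 1801 and 1988 in the TMZ-resistant libraries, against 3198 and 3009.7 in the parental libraries and fell 1.64-fold (−0.71 ± 0.08 (SE), limma, adjusted p = 5.40e-04). HEATR1, which works with UTP15 and links rRNA transcription to processing, had 3706 and 3671 in the TMZ-resistant libraries, against 5028 and 4769.9 in the parental libraries. Its libraries were close within each group, and the fall was 1.33-fold (−0.41 ± 0.07 (SE), limma, adjusted p = 0.00324).

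Other members of the same early sub-complex differed in size of change. WDR43 fell with a log2 fold change of −0.41 (limma, adjusted p = 0.00305), close to HEATR1, while WDR75 had −0.17 and did not pass (limma, adjusted p = 0.135). RRP9, which binds the U3 snoRNA, fell with −0.59, UTP18 with −0.56 and NOP14 with −0.37 (limma, adjusted p = 0.00206, 0.00209 and 0.0159). The call for NOP14 was lost with library-size scaling and without parental replicate 1 or TMZ-resistant replicate 2. UTP14A, known from yeast to activate a helicase of the processome, had −0.24, NAT10, which acetylates small-subunit rRNA, −0.14, and the helicase gene DDX10 −0.14. None of these passed (limma, adjusted p = 0.0618, 0.155 and 0.24). The wider list of 40 small-subunit factors, of which 38 were tested, went the same way. In it 24 fell and 1 rose, beside 20.9% and 16.2% of all genes tested, with a median of −0.38. Without TMZ-resistant replicate 1, 13 fell. Among the largest falls were IMP3 at −0.81, NOL6 at −0.78, PNO1 at −0.77 and RRP36 at −0.76 (limma, adjusted p from 7.27e-04 to 0.00306). IMP3, for example, had 627 and 789.8 in TMZ-resistant against 1127 and 1352 in parental libraries. The member of that list that rose was PDCD11, named because it was the exception, at 7021 and 7406 in TMZ-resistant against 5953 and 5671 in parental libraries (0.31, limma, adjusted p = 0.0107, and 0.0781 without TMZ-resistant replicate 2).

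Later assembly of the small subunit was the role with called genes in both directions. Of its 5 members 3 fell and 1 rose, beside 20.9% and 16.2% of all genes tested. LTV1, an export adaptor of the immature small subunit, fell with a log2 fold change of −0.67, BYSL with −0.46 and TSR1 with −0.36 (limma, adjusted p = 6.84e-04, 0.0132 and 0.00686), the call for BYSL being lost without TMZ-resistant replicate 1. Both other genes were higher in both TMZ-resistant libraries. RRP12, a repeat protein needed for export of both precursor subunits, was the 1 member that rose. It had 3195 and 3248 in the TMZ-resistant libraries, against 2460.0 and 2504 in the parental libraries. The means were 3221 ± 37.1 in TMZ-resistant and 2482 ± 31.1 in parental cells (SD, n = 2 each), with a log2 fold change of 0.38 ± 0.07 (SE) (limma, adjusted p = 0.00499) that was 0.0531 with moderation lacking trend and robustness. NOB1, the nuclease that makes the final cut of small-subunit rRNA, had 3374 and 3096 in the TMZ-resistant libraries, against 2903 and 2634 in the parental libraries. The groups did not overlap, but its log2 fold change of 0.23 ± 0.09 (SE) did not pass (limma, adjusted p = 0.0722). With library-size scaling it was 0.32 and passed (limma, adjusted p = 0.0216).

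RRP12 lies on distal chromosome 10 (chromosome 10, 97356358 to 97426076, minus strand), among genes that were higher in the TMZ-resistant line. Of the 84 tested coding genes that start within 5 Mb of RRP12, 46 rose and 2 fell, with a median log2 fold change of 0.54, above the 0.38 of RRP12 itself. NOLC1, on the same arm, had 91 such neighbours, of which 55 rose and 1 fell, with a median of 0.55, against its own −0.08. Around the other 38 members the neighbours' median ran from −0.21 (TSR1) to 0.10 (FBL). The genes EXOSC1, of the RNA exosome, and PDCD11, which both rose, lie 0.0798 and 6.04 Mb from RRP12. The part of this chromosomal stretch in the values of RRP12 and NOLC1 was not tested.

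**Figure D2:**
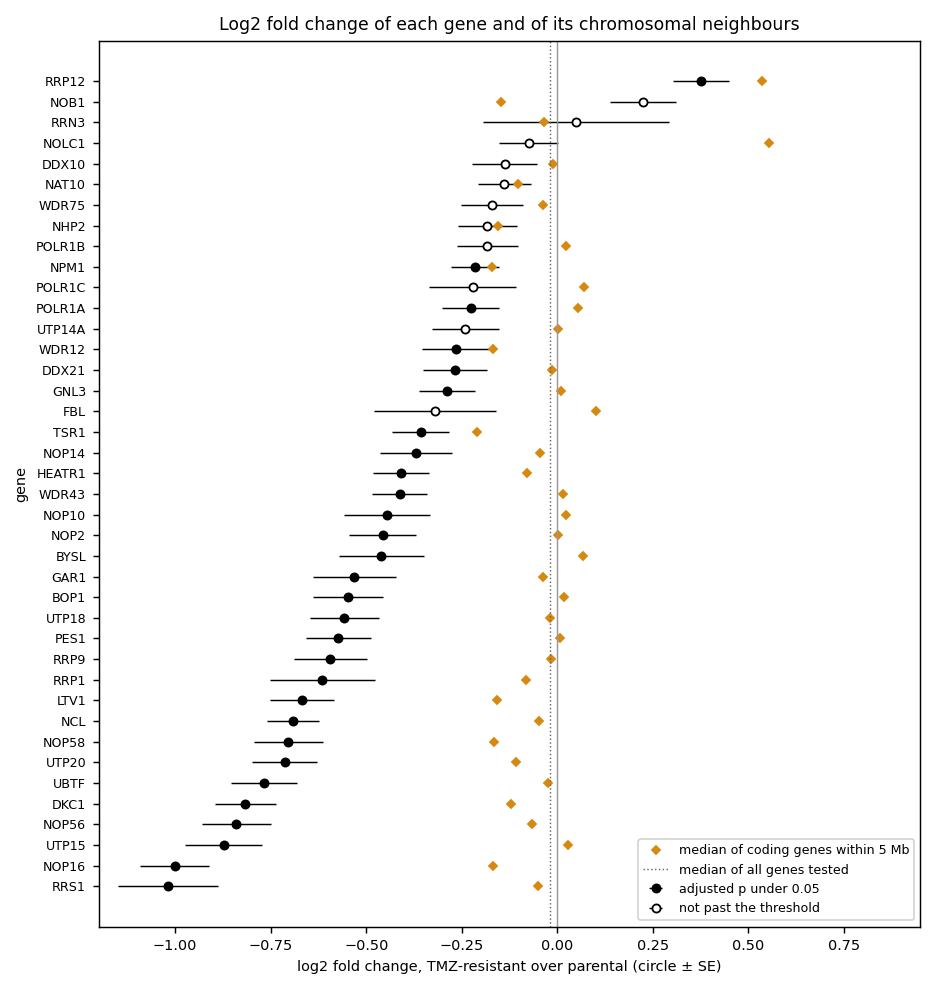
Log2 fold change (TMZ-resistant over parental) of each member as a circle with its SE, filled where the adjusted p was under 0.05, and the median of the tested coding genes within 5 Mb as a diamond. The diamonds stay between −0.21 and 0.10 except at RRP12 and NOLC1, where they are at 0.54 and 0.55.

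**Figure D3:**
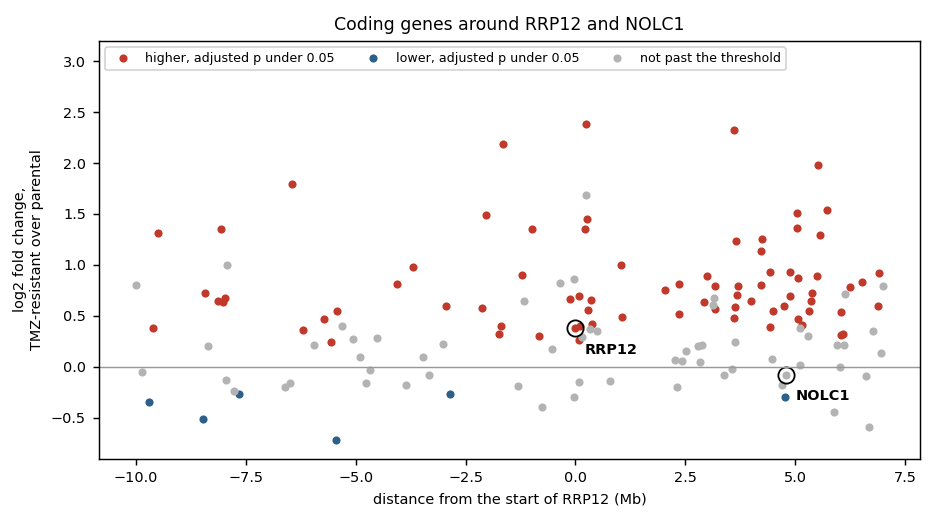
Log2 fold change (TMZ-resistant over parental) of tested coding genes within 10 Mb of RRP12 against distance from its start in Mb, with RRP12 and NOLC1 ringed. Most called genes are higher, RRP12 is at 0.38, and NOLC1 lies under most genes around it.

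In large subunit assembly 7 of 7 members fell, beside 20.9% of all genes tested, with a median of −0.57. It also held the members with the largest falls. RRS1, which helps place the small ribosomal RNA particle of RPL5 and RPL11 in the precursor, had 462 and 589 in the TMZ-resistant libraries, against 1011 and 1105 in the parental libraries. Both TMZ-resistant libraries were far under both parental ones, and the log2 fold change was −1.02 ± 0.13 (SE), 2.03-fold lower (limma, adjusted p = 7.57e-04; chromosome 8, 66429028 to 66430733, plus strand). NOP16, a nucleolar protein known from yeast as a large-subunit factor, had 939.8 and 902 in the TMZ-resistant libraries, against 1944 and 1749 in the parental libraries. Its means were 921 ± 26.8 in TMZ-resistant and 1846 ± 138 in parental cells (SD, n = 2 each), a 2.00-fold fall (−1.001 ± 0.09 (SE), limma, adjusted p = 1.85e-04; chromosome 5, 176383938 to 176388975, minus strand). RRP1 and NOP2, an rRNA methyltransferase, fell with −0.61 and −0.46 (limma, adjusted p = 0.0107 and 0.0046), and RRP1 was not called without TMZ-resistant replicate 1.

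PES1, BOP1 and WDR12 form the PeBoW complex, which processes the spacer between the large-subunit rRNAs. PES1 had 2961 and 3364 in the TMZ-resistant libraries, against 4619 and 4773 in the parental libraries and fell 1.49-fold (−0.57 ± 0.08 (SE), limma, adjusted p = 0.00141). BOP1 had 4096 and 4505 in the TMZ-resistant libraries, against 5836 and 6752 in the parental libraries and fell 1.46-fold (−0.55 ± 0.09 (SE), limma, adjusted p = 0.00265). For these partners the groups stood apart by similar amounts. WDR12 had the smaller change, −0.27 ± 0.09 (SE) (limma, adjusted p = 0.0419), and its call was lost with 2 of the scalings (library size and median of ratios) and without parental replicate 1 or either TMZ-resistant replicate. Of 41 other large-subunit factors tested 25 fell and 1 rose, beside 20.9% and 16.2% of all genes tested, with a median of −0.39. Without TMZ-resistant replicate 1, 16 fell. MRTO4 had 410.4 and 484 in TMZ-resistant against 990.0 and 964 in parental libraries and fell with −1.13 (limma, adjusted p = 2.65e-04), and RRP1B, RRP15 and RPF2 fell with −0.78, −0.77 and −0.72. The factor that rose was RSL24D1, named as the exception, which holds the place of a ribosomal protein in the precursor, at 2990.3 and 2789 in TMZ-resistant against 2019.9 and 2099 in parental libraries (0.49, limma, adjusted p = 0.00216). In the RNA exosome, which trims the rRNA precursors, 8 of 14 genes fell and 2 rose, against 5 and 1 without TMZ-resistant replicate 1. MPHOSPH6, C1D and EXOSC3 fell with −0.72, −0.59 and −0.55, and EXOSC1 rose with 0.69, as did the nuclease gene DIS3 with 0.30. C1D was not called without TMZ-resistant replicate 1, nor DIS3 without parental replicate 2 or either TMZ-resistant replicate.

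**Figure D4:**
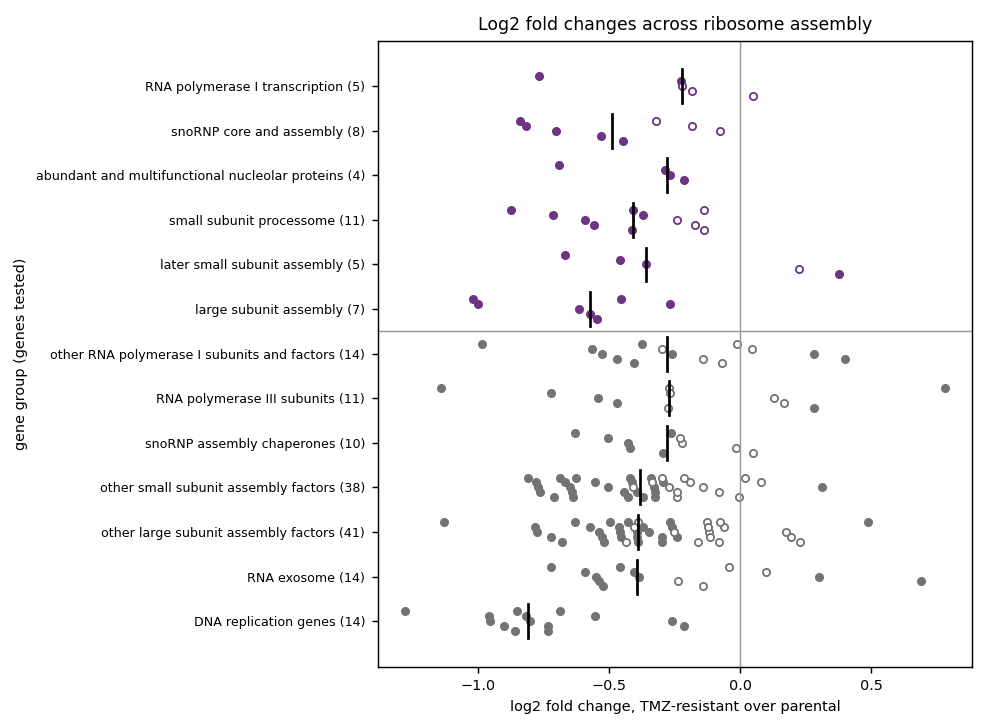
Log2 fold change (TMZ-resistant over parental) of every tested gene in the 6 roles of the 40 members (upper part) and in 7 further lists (lower part). Filled circles are genes with an adjusted p under 0.05, and black bars are medians. The medians run from −0.22 for Pol I transcription to −0.57 for large subunit assembly among the roles. They reach −0.81 for the list named DNA replication genes, which also holds the proliferation genes TOP2A and MKI67.

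Other groups were measured beside the members. In a list of DNA replication and proliferation genes 14 of 14 fell, beside 20.9% of all genes tested, with a median log2 fold change of −0.81. GINS2, for example, had 547 and 578 in TMZ-resistant against 1457 and 1284 in parental libraries. MCM2 had 5576 and 6386 in TMZ-resistant against 10675 and 11662 in parental libraries. TOP2A and MKI67 had the smallest falls of the list, −0.26 and −0.21. With library-size scaling neither was called, and 12 of the 14 fell. The part of cell proliferation in the members' fall was not tested. MYC, the transcription factor known to drive ribosome assembly genes, rose to 12515 and 13647, against 9860.3 and 10608 in parental libraries (0.35, limma, adjusted p = 0.0078). Without TMZ-resistant replicate 2 the call for MYC was lost (limma, adjusted p = 0.0557). MXI1, a MAX partner that opposes MYC, had 2115 and 2119 in TMZ-resistant against 927 and 1002 in parental libraries and rose with 1.14 (limma, adjusted p = 9.18e-05), while MAX and MNT had −0.10 and 0.14 and did not pass. MXI1 also lies on chromosome 10. RPL5 and RPL11, ribosomal proteins that bind the p53 regulator MDM2 when assembly is disturbed, had 0.16 and 0.09 and did not pass (limma, adjusted p = 0.0917 and 0.42). HEATR3, which helps import them, fell with −0.39 (limma, adjusted p = 0.00995) but was not called on leaving out TMZ-resistant replicate 1 or 2.

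Levels of the members, compared per kilobase of annotated exon, spanned a wide range. The mean over the 4 libraries ran from 21.5 per kilobase for RRN3 to 11070.0 for NPM1, and NCL (6894), NOLC1 (3826) and DDX21 (3023) followed NPM1. FBL stood at 172 per kilobase, among the lower members, with UTP15 at 199 and DDX10 at 186. Of the 40 members 38 were above the median of all genes tested on this scale. RRS1 and NOP16, the members with the largest falls, stood at 464 and 484 per kilobase. The members lie on 18 chromosomes. Exons of 9 members are shared with a coding gene on the other strand, among them NOP16 (with ARL10 and HIGD2A), UTP15 (ANKRA2), HEATR1 (LGALS8), POLR1C (XPO5 and YIPF3) and PES1 (TCN2), and fragments of such pairs cannot be told apart without the strand setting of the counting.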

How the data were processed

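RNA of GBM8401 cells was sequenced, and libraries were grouped by title, 2 TMZ-resistant and 2 parental. The submitters' processing notes list bcl2fastq, Trimmomatic 0.36, HISAT2 2.1.0, SAMtools 1.2, Cufflinks 2.2.1, Cuffdiff and the build GRCh38.p10. The kit was strand-specific per the labels' protocols. The sources used here give no annotation, scaling or strand setting. What the authors deposited is a signal: fragments per gene times 1 factor per library. Division by that factor gave whole numbers (within 0.05) for 93.8% to 94.3% of values above 0, and 27019137 to 30759939 fragments per library.

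Genes at 10 or more in at least 2 libraries entered a limma fit (version 3.58.1 under R 4.3.3, trend and robust moderation, two-sided) of log2(value + 1), a scale that understates changes of low genes. P-values were adjusted over all genes. The fit was also run on simulated data with far fewer changed genes, as a check of the code and not of the calls made here. GENCODE 29, matching 57881 of 58219 IDs, gave symbols and exon lengths. Full values are given for up to 8 called members with the largest falls and rises, for 12 key members and for the member with the smallest change. From other lists, up to 4 called genes with a mean of at least 100 are named; exceptions in direction, the rRNA processing RNAs and uncalled genes of small lists were named after their values were seen. Members, lists, motifs and settings were chosen with earlier results of these data known.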

Additional observations from a re-analysis of the deposited data

How the results depend on the processing

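The reported fit was compared with 14 other settings, 13 planned and 1 (voom weights on recovered fragments) chosen after seeing the data, as was NPM1 summed with its copies. In all 14 settings 16 of the 28 members that fell kept their call. With moderation lacking trend and robustness, 3686 genes changed in place of 5991, 16 members changed in place of 29, all 16 lower and 0 higher, and 55 genes of the other pathway lists changed in place of 101; the cause was not tested. With library-size scaling the members' median log2 fold change was −0.32, the median of all genes shifted from −0.02 to 0.08, the share of called genes that were higher was 56.9% in place of 43.7%, 2 members rose, and NOLC1 turned to 0.020.

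Leaving out 1 library gave 3528 to 5435 changed genes (3528 and 3786 without TMZ-resistant replicates 1 and 2), 22 to 27 members changed, 21 to 26 lower and 1 higher in each case, a members' median of −0.43 to −0.38, and 64 to 89 changed genes in the other lists. RRN3 ran from −0.25 (without TMZ-resistant replicate 2) to 0.34 and was −0.016 without parental replicate 1, and NOLC1 ran from −0.15 to 0.0021 (without parental replicate 1). With a replicate block, 2 members rose (NOB1 with an adjusted p of 0.00229 in limma), 33 fell (FBL with 0.0107) and 8624 genes changed. The labels tie no number to a shared culture or day, and the numbers were not taken to pair libraries. With 2 libraries per group the correlation of deviations is a single value, 0.265 for either replicate number and −0.265 crossed. It cannot decide whether the libraries are paired.

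The count-based test planned as an alternative was not run, because the deposited values are scaled and division by the factor gave whole numbers for most but not all of them. The voom setting used recovered fragments rounded to whole numbers. Depth limits RRN3 most, at a mean of 89.3, and snoRNAs, mostly at 0.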
